A study of Zea mays with 12 samples.

Results

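Maize endosperm was compared between 3 crossing dates, each of which supplied 1 sample of every genotype. The genotypes were the inbred lines B73 and Mo17 and their reciprocal hybrids, B73xMo17 and Mo17xB73, and the first-named parent of a cross was assumed to be the ear parent, a point on which the labels are silent. A date was identified by the replicate number that the sample titles carry, because the crosses of 1 replicate were made within 30 minutes of each other and the replicates on different dates. Each date held 4 arrays, 1 per genotype, so that all 12 arrays of the series entered the comparison. Every sample was a pool of 36 endosperms, 6 from each of 6 ears of field-grown plants, taken 19 days after pollination, and 8 micrograms of total RNA were hybridised to a single-colour Affymetrix array. No sample was treated, and all carried unmodified parental genomes. The labels give neither the order nor the spacing of the dates by number, nor the days of RNA extraction and hybridisation. A date therefore stands for everything its 4 samples shared, and field conditions, harvest, dissection and any laboratory step done together cannot be told apart.

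Endosperm is the storage tissue of the maize kernel, a product of double fertilisation in which the female parent contributes more genome copies than the male. During grain filling its central cells stop dividing, replicate their DNA further without division, and load starch and zein storage proteins under the control of transcription factors such as opaque2. An outer aleurone layer and a basal transfer layer surround these cells, and the pace of filling is known to vary with temperature and other field conditions. In a pool of whole endosperms, fewer cells of a type and less RNA per cell cannot be told apart.

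The deposited signals were quantile-normalised, which gives every array the same distribution, and the 11748 probe sets left after a filter on dim ones were tested as log2(signal + 10.6) in a model with genotype and date. All log2 differences below are on that scale, which understates the change of dim probe sets. A probe set was called at a Benjamini-Hochberg adjusted p under 0.05. The median standard error of a difference between 2 dates, each the mean of 4 arrays, was 0.114 on the log2 scale, giving a 95% interval of ±0.25, or 1.19-fold, and the number of arrays limits the precision to that. Before normalisation the mean signal of an array, trimmed by 2% at each end, averaged 332 at date 1, 368 at date 2 and 389.8 at date 3. An exact permutation test of the log2 values within genotypes over 1296 arrangements did not separate the dates (two-sided p = 0.130, the smallest possible being 0.00463). Starchy endosperm genes were abundant on all arrays, with summed zein signals of 63642 to 89225 over 8 genes. The sum of 3 green tissue markers was 299 to 423. That of 5 genes listed as embryo markers was 4980 to 8727, but 1 gene, lip15, held most of it. The standing of lip15 as an embryo marker is uncertain, so this sum does not measure embryo content. At date 1 ole1 gave 617 to 1170 and glb1 135 to 480, so the pools were not free of genes that embryos also express.

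Genotype took 80.5% of the sum of squares over the tested probe sets, date 7.46% and the residual 12%. Within genotypes, date held 38.3% of the variation with 25% of the degrees of freedom. Date 1 stood apart from the others. After each genotype's mean was removed, the first principal component (28.8% of the variance) placed the 4 arrays of date 1 between -16.9 and -14.4, while the 8 arrays of dates 2 and 3 lay between 4.78 and 11.9. Dates 2 and 3 overlapped on that component.

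**Figure D1:**
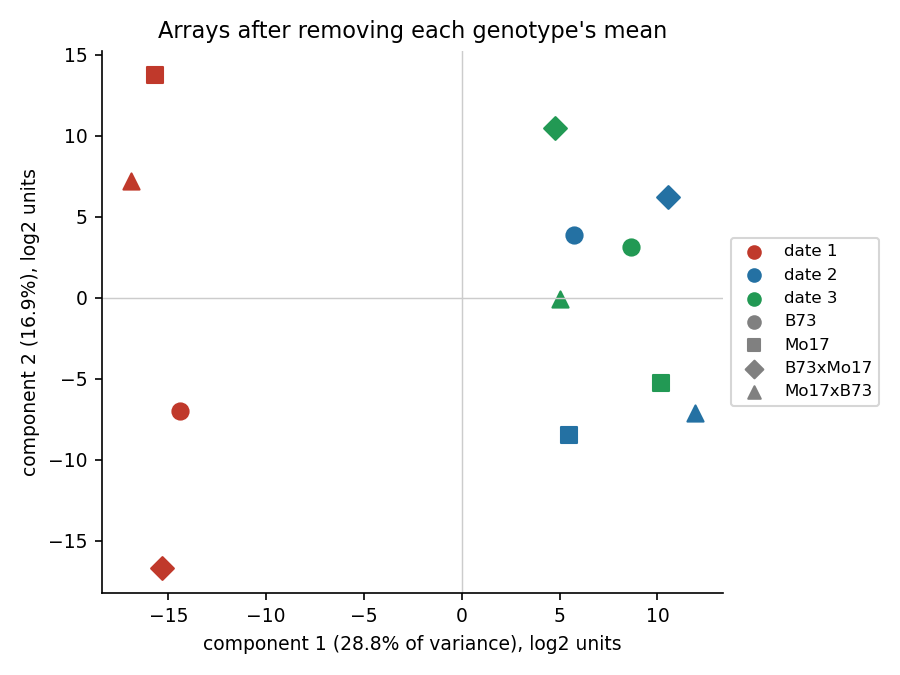
Each point is 1 of the 12 arrays after the mean of its genotype was subtracted. The x axis is principal component 1 (28.8% of the variance) and the y axis component 2 (16.9%), both in log2 units, with colour for the date and shape for the genotype. The 4 arrays of date 1 lie at or below -14.4 on the x axis, and the other 8 at or above 4.78.

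The separation was examined within each genotype, where 1 array stands for each date and no error can be given. In B73 the median absolute log2 difference between arrays was 0.162 for dates 1 and 2, 0.184 for dates 1 and 3 and 0.128 for dates 2 and 3. In Mo17 the same medians were 0.184, 0.197 and 0.118. In B73xMo17 they were 0.221, 0.197 and 0.183. The 2 later-numbered dates were thus the closest pair in these 3 genotypes. Mo17xB73 departed from this, since its dates 1 and 3 (0.164) and dates 2 and 3 (0.167) were about equally close and dates 1 and 2 were farther apart (0.221).

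Date 2 differed from date 1 at 268 probe sets (2.28% of those tested), of which 151 (1.29%) were higher at date 2 and 117 (0.996%) lower. Date 3 differed from date 1 at 327 (2.78%), with 176 (1.5%) higher and 151 (1.29%) lower. Both comparisons use the same 4 arrays of date 1, so they are not independent of each other, and values of single genes are given side by side below. Differences of 2-fold or more were called at 21 probe sets (0.179%) for date 2 and 12 (0.102%) for date 3. The called difference had 1 sign in all 4 genotypes at 265 probe sets (2.26%) for date 2 and 322 (2.74%) for date 3, while 24.3% and 28.2% of all probe sets tested, called or not, had 1 sign throughout. At an unadjusted p under 0.05 there were 2361 probe sets (20.1%) for date 2 and 2322 (19.8%) for date 3. Between dates 3 and 2 limma called none, with 621 (5.29%) at an unadjusted p under 0.05 and a smallest adjusted p of 0.359, and 15.2% of all probe sets had 1 sign in the 4 genotypes. A moderated F test over the 3 dates called 199 (1.69%).

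These counts rested on few arrays. For date 2 minus date 1 the count was 9 without the Mo17xB73 array of date 2, 25 without B73xMo17 of date 2, 75 without Mo17xB73 of date 1, 138, 157 and 162 without the B73 arrays of dates 3, 2 and 1, 145 without Mo17xB73 of date 3 and 168 without Mo17 of date 2. For date 3 minus date 1 it was 30 without the B73 array of date 3, 36 without Mo17 of date 3, 89 and 152 without Mo17xB73 of dates 3 and 1, 97 and 142 without B73xMo17 of dates 3 and 1, 111 and 155 without B73 of dates 1 and 2, and 197 without Mo17 of date 1. The F test gave 58 to 167 with 1 array left out, the lowest without B73xMo17 of date 1. The split by direction rested on the scaling. The share of calls higher at the later-numbered date was 56.3% for date 2 and 53.8% for date 3 after quantile normalisation. It was 43.1% and 39.9% after division by the trimmed mean, 81.3% and 94.5% for the values as deposited, and 87.0% and 89.0% after centring on the median. The deposited values themselves were shifted by a median of 0.08 on the log2 scale at date 2 and 0.17 at date 3 relative to date 1, so the quantile-normalised differences are relative to that shift. The called named differences described below kept their sign under every scaling wherever they were re-run. Not re-run were UMPS and yuc at date 3, sir at date 2 and the second OBF1 probe set. On the values as deposited, the re-run falls of named genes lost their calls, except those of TIP3-1 and TIP4-4. The falls of his1a and cesa7 shrank to as little as -0.06 and -0.08 among all alternatives. Called rises at date 2 of FAD8, UMPS, met5, bt2, mdh4 and eif7 were also lost as deposited.

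**Figure D2:**
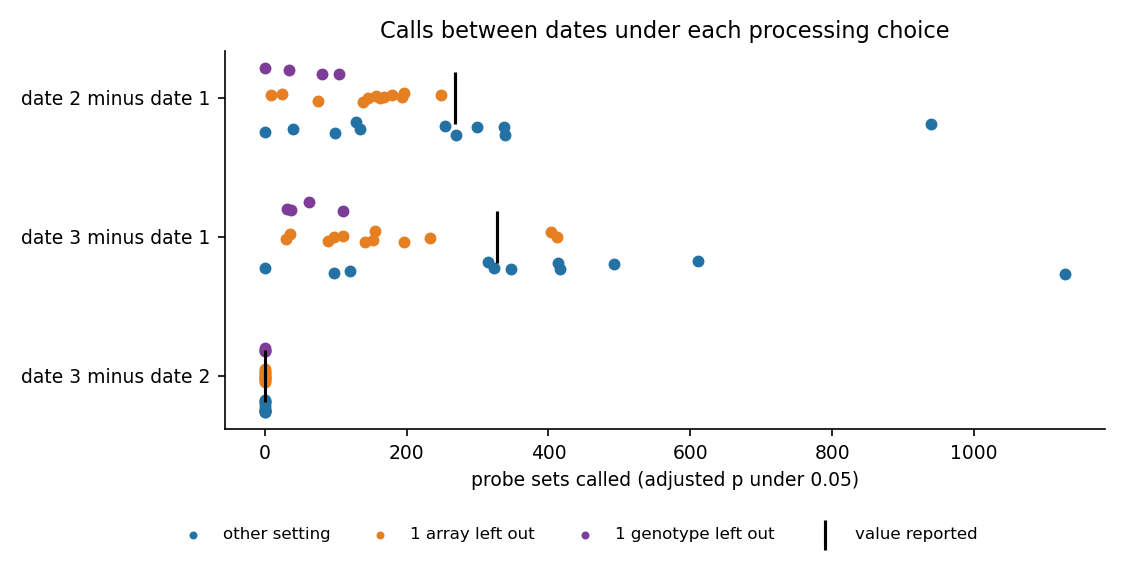
The x axis is the number of probe sets called at an adjusted p under 0.05 for each pair of dates, listed on the y axis. Black bars mark the values reported (268, 327 and 0), orange points the counts with 1 array left out, purple points those with 1 genotype left out, and blue points those under another scaling, constant, filter or model. The counts for date 2 minus date 1 run from 0 to 939 and those for date 3 minus date 1 from 1 to 1128, while every count for date 3 minus date 2 is 0.

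A technical measure also moved with date. The ratio of the 3′ to the 5′ actin control probe sets, which rises as RNA or labelled product shortens, was 2.42, 2.45, 1.98 and 1.98 at date 1 in B73, Mo17, B73xMo17 and Mo17xB73. It was 2.73, 3.04, 3.43 and 2.80 at date 2 and 2.63, 2.81, 2.07 and 2.72 at date 3, so date 1 was lowest in each genotype. For a gapdh control pair the ratio was 0.952 to 1.09 at date 1, 1.12 to 1.21 at date 2 and 1.04 to 1.08 at date 3. The cyclophilin ratio went the other way, at 2.01, 1.70, 2.06 and 1.69 at date 1, 2.04, 1.47, 1.72 and 1.49 at date 2 and 1.92, 1.45, 1.97 and 1.39 at date 3 in the same genotype order. It was lower at date 3 than at date 1 in all 4 genotypes, and at date 2 in each but B73. The ef1a ratio was 1.75 to 2.10, 1.53 to 2.24 and 1.68 to 2.22 at the 3 dates and the ubiquitin ratio 0.965 to 1.27, 1.01 to 1.35 and 0.965 to 1.25. The part of RNA integrity in the differences between dates was not tested.

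DNA replication and chromatin genes were among the named genes that rose most from date 1. MCM7, a subunit of the helicase that unwinds DNA at replication forks, gave signals of 103, 76.0, 70.1 and 61.7 at date 1 in B73, Mo17, B73xMo17 and Mo17xB73, 164, 196, 146 and 180 at date 2, and 177, 176, 92.8 and 135 at date 3. All 4 arrays of date 2 lay above those of date 1, and at date 3 only B73xMo17 overlapped them. The log2 difference was 1.06 ± 0.15 (SE) at date 2 (adjusted p = 0.0105) and 0.80 ± 0.15 at date 3 (adjusted p = 0.0175). The first call was lost without the Mo17xB73 array of date 2 (adjusted p = 0.0507) and the second without any of 4 arrays, the adjusted p reaching 0.0937 without B73 of date 3.

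nfd106, which encodes a high-mobility-group chromatin protein, had signals of 60.2, 57.8, 67.8 and 59.7 at date 1, 84.6, 150, 125 and 173 at date 2 and 87.0, 170, 102 and 143 at date 3, in the same genotype order. The date 1 arrays were the 4 lowest of the 12, and the rise was smallest in B73. Its log2 differences were 0.96 ± 0.17 (adjusted p = 0.0172) and 0.88 ± 0.17 (adjusted p = 0.0205), calls that were lost without 3 and 5 of the 12 arrays in turn. nfd101, of the same family, rose at date 2 by 0.88 ± 0.18 (adjusted p = 0.0312) and stood at 0.50 ± 0.18 at date 3 (adjusted p = 0.155). met5, a DNA methyltransferase gene, rose at date 2 by 0.57 ± 0.13 on 1 of its 3 probe sets (adjusted p = 0.0452), the others giving 0.30 and 0.27 without a call, and stood at 0.49 ± 0.13 at date 3 (adjusted p = 0.0676). The nfd101 call was lost without 7 of the 12 arrays and the met5 call without 10, with adjusted p up to 0.113 and 0.148. For the wider groups, 1 of 16 tested genes of the cell cycle and DNA replication, MCM7 itself, was called at either date and none fell. The median log2 difference of the 16 was 0.19 at date 2 and 0.24 at date 3, beside 0.00 over all probe sets tested at either date, and 0.11 to 0.25 and 0.13 to 0.32 under the 3 other scalings. Of 52 chromatin genes, each counted by its brightest probe set, 3 rose at date 2 and 1 at date 3, and none fell. These counts stand beside 1.29% and 1.5% of all probe sets. The 3 at date 2 included nfd106 and nfd101 but not met5, whose brightest probe set was not called (adjusted p = 0.246). The medians of the 52 genes were -0.02 and -0.03, and -0.04 to 0.10 and -0.05 to 0.17 under the 3 other scalings.

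**Figure D3:**
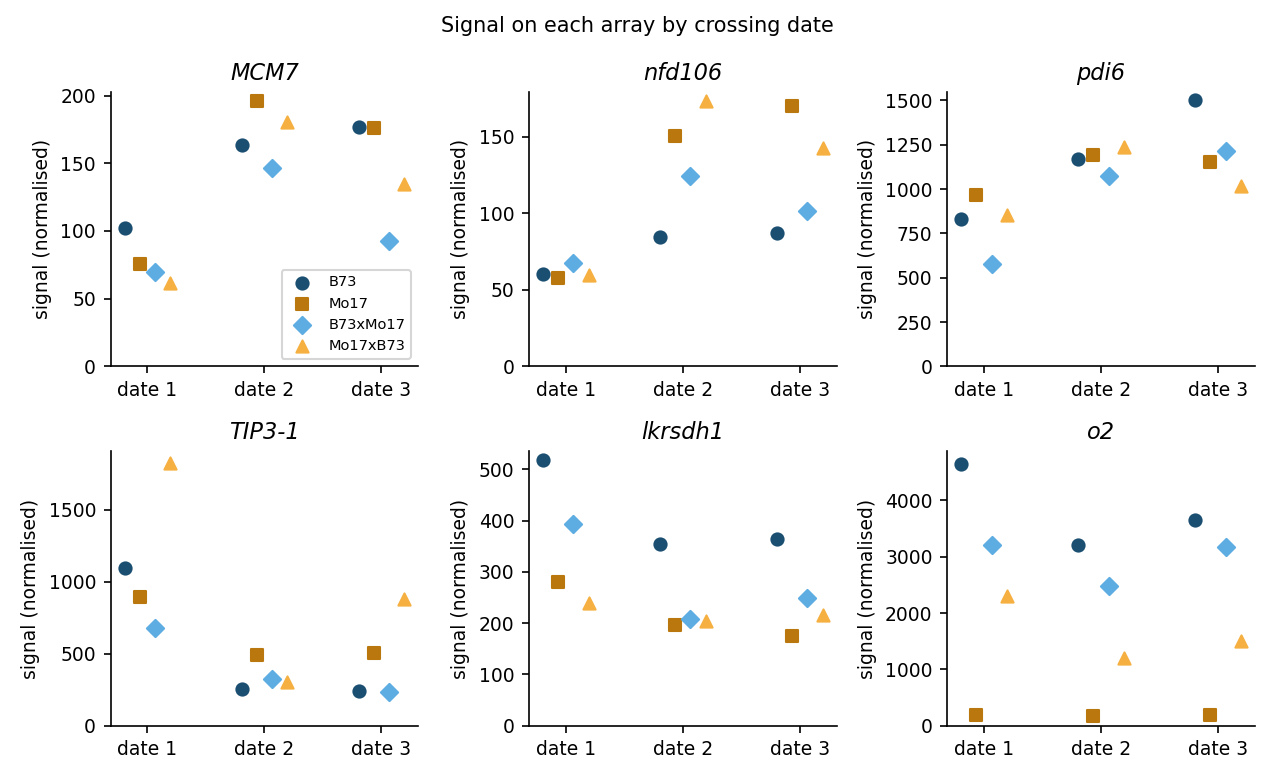
Quantile-normalised signal (y axis, linear, from 0) on each array for 6 genes, by crossing date (x axis), with colour and shape for the genotype and 1 point per array. For MCM7, nfd106 and pdi6 every array of date 1 lies below every array of date 2, and for TIP3-1 every array of date 1 lies above them. In o2 and lkrsdh1 the difference between dates is smaller than that between genotypes.

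Among other single genes, FAD8, a plastid fatty acid desaturase, had signals of 66.4, 110, 69.8 and 71.0 at date 1, 116, 162, 116 and 99.0 at date 2 and 123, 172, 124 and 109 at date 3. Mo17 was highest at every date, and each genotype was lowest at date 1. The log2 differences of FAD8 were 0.58 ± 0.10 (adjusted p = 0.0173) and 0.67 ± 0.10 (adjusted p = 0.00913), and the calls were lost without B73xMo17 or Mo17xB73 of date 2 (adjusted p up to 0.0669) and without B73 of date 3 (adjusted p = 0.0569). UMPS, which makes uridine monophosphate for nucleotide synthesis, rose by 0.61 ± 0.12 (adjusted p = 0.0226) and 0.52 ± 0.12 (adjusted p = 0.0385). Its B73 signals, 11.9, 21.3 and 14.2, were close to the added constant, and its second probe set gave 0.25 and 0.12 with no call. The first of these calls was lost without 7 of the 12 arrays (adjusted p up to 0.0707).

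Sulfite reductase, sir, which makes sulfide for cysteine, gave 946, 849, 841 and 634 at date 1 and 1423, 1226, 1497 and 1075 at date 3, with no overlap between these dates. The log2 difference of sir at date 3 was 0.67 ± 0.11 (adjusted p = 0.0117), lost without B73 or Mo17 of date 3 (adjusted p up to 0.0628), and at date 2 it was 0.48 ± 0.11 (adjusted p = 0.0417). The gene's other probe sets did not follow, at -0.26 and 0.37 for date 3 with no call. pdi6, a protein disulfide isomerase of the endoplasmic reticulum, where zeins fold, gave 830, 967, 580 and 853 at date 1, 1172, 1190, 1072 and 1236 at date 2, and 1502, 1155, 1212 and 1015 at date 3. The arrays of date 1 were the 4 lowest. Its log2 differences were 0.55 ± 0.13 (adjusted p = 0.0417) and 0.60 ± 0.13 (adjusted p = 0.0334), lost without 8 and 5 of the 12 arrays (adjusted p up to 0.132 and 0.135). pdi6 was the only 1 of 13 tested genes for chaperones and folding to be called at either date. Over all probe sets, 1.29% were called higher at date 2 and 1.5% at date 3. The median of the 13 was 0.08 at date 2 and 0.00 at date 3, and 0.06 to 0.21 and 0.00 to 0.23 under the 3 other scalings.

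Among genes of carbohydrate use, 1 of 19 starch and sucrose genes was called. Over all probe sets, 1.29% were called higher at date 2 and 1.5% at date 3. bt2, the small subunit of the ADP-glucose pyrophosphorylase that supplies starch synthesis, gave 6490, 6293, 6427 and 6476 at date 1, 7655, 8414, 7519 and 6871 at date 2 and 8049, 8494, 8148 and 7644 at date 3. The 4 arrays of date 1 agreed closely and lay below the other 8. The differences were small on the log2 scale, 0.24 ± 0.05 (adjusted p = 0.0401) and 0.33 ± 0.05 (adjusted p = 0.0116), and were lost without 10 of the 12 arrays for date 2 (adjusted p up to 0.10) and without B73 or Mo17 of date 3 for date 3 (adjusted p up to 0.0607). The debranching enzyme gene zpu1 stood at -0.61 ± 0.15 at date 2 (adjusted p = 0.0505) and starch synthase ss1 at 0.33 ± 0.09 at date 3 (adjusted p = 0.0586). The median of the 19 genes was -0.04 and -0.07, and for date 2 it ran from -0.11 to 0.03 under the 3 other scalings, while for date 3 the lowest was -0.23. mdh4, a malate dehydrogenase, rose by 0.25 ± 0.06 (adjusted p = 0.0487) and 0.27 ± 0.06 (adjusted p = 0.0400). By brightest probe sets, mdh4 was the 1 gene called of 13 in central carbon metabolism, beside the 1.29% and 1.5% of all probe sets given above. Each call on mdh4 was lost without at least 10 of the 12 arrays (adjusted p up to 0.136 and 0.156).

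Other rises were called at 1 of the later-numbered dates. At date 3 these included crr2, a cytokinin response regulator, at 0.75 ± 0.17 (adjusted p = 0.0390), the ribosomal protein gene RPS21 at 0.70 ± 0.17 (adjusted p = 0.0444), the G-box binding factor GBF1 at 0.63 ± 0.12 (adjusted p = 0.0229) and the thioredoxin gene trxh2 at 0.51 ± 0.11 (adjusted p = 0.0345). At date 2 these 4 stood at 0.47, 0.57, 0.24 and 0.32 without a call. The cap-binding factor gene eif7 rose at date 2 by 0.36 ± 0.08 (adjusted p = 0.0472) and stood at 0.33 ± 0.08 at date 3 (adjusted p = 0.0537). ROA rose at both, by 0.82 ± 0.12 (adjusted p = 0.0109) and 0.64 ± 0.12 (adjusted p = 0.0188), from 149 to 190 at date 1 to 241 to 381 at date 2 and 226 to 294 at date 3. The call on ROA at date 2 was kept whichever array was left out, and its call at date 3 was lost without 5 of the 12 (adjusted p up to 0.0980). Those on crr2, RPS21, GBF1, trxh2 and eif7 were lost without 9, 9, 7, 6 and 11 of the 12 arrays, with adjusted p up to 0.153, 0.159, 0.107, 0.126 and 0.128.

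TIP3-1, an aquaporin of the storage vacuole membrane found in seeds, fell most among named genes. Its signals were 1092, 896, 677 and 1826 at date 1, 257, 492, 324 and 306 at date 2 and 241, 505, 232 and 877 at date 3. Every date 1 array lay above every date 2 array, while at date 3 Mo17xB73 (877) overlapped date 1. TIP3-1 fell by 1.62 on the log2 scale at date 2 (SE 0.27, adjusted p = 0.0162), a 3.07-fold decrease, and by 1.37 at date 3 (SE 0.27, adjusted p = 0.0244), a 2.59-fold decrease. The first call was lost without Mo17xB73 of date 2 (adjusted p = 0.0507) and the second without any of 5 arrays, the adjusted p reaching 0.115 without B73 of date 3. TIP4-4, another aquaporin, fell at date 3 by 0.78 (SE 0.17, adjusted p = 0.0403) and stood at -0.58 at date 2 (adjusted p = 0.10). Its call was lost without 8 of the 12 arrays (adjusted p up to 0.137). Of 24 tested genes for membrane transport, 1 fell at date 2 and 3 at date 3, and none rose. Over all probe sets, 0.996% were called lower at date 2 and 1.29% at date 3. The median of the 24 was -0.14 and -0.07, or -0.24 to -0.10 and -0.12 to 0.08 under the 3 other scalings. TIP3-1 is also used as an aleurone and embryo marker in seeds, and the sums of those markers are given below.

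Among genes of storage protein synthesis, the o2 gene and 1 of 8 zein genes were called at date 2. opaque2 (o2), the bZIP factor that activates alpha zein genes, gave 4648, 191, 3200 and 2298 at date 1, 3211, 171, 2485 and 1200 at date 2 and 3646, 183, 3174 and 1502 at date 3. Mo17 was lowest throughout, and in every genotype the date 2 array lay below the date 1 array. o2 fell by 0.49 at date 2 (SE 0.11, adjusted p = 0.0359) and stood at -0.26 ± 0.11 at date 3 (adjusted p = 0.210). Its other probe set gave -0.34 and -0.19 with no call, and the call was lost without 7 of the 12 arrays (adjusted p up to 0.118). z1C1_12, an alpha zein gene of the class that opaque2 activates, gave 6264, 5061, 4462 and 7723 at date 1, 5493, 2245, 3329 and 5161 at date 2 and 6608, 3325, 3915 and 7689 at date 3. It fell at date 2 by 0.59 (SE 0.12, adjusted p = 0.0280), most in Mo17, and stood at -0.18 ± 0.12 at date 3 (adjusted p = 0.426). The call on z1C1_12 was lost without 4 of the 12 arrays (adjusted p up to 0.0951). It was the 1 zein gene called of 8, beside 0.996% of all probe sets called lower at date 2. The median of the 8 was -0.07 at date 2 and -0.05 at date 3. Under the 3 other scalings it was -0.19 to -0.04 and -0.20 to 0.03, lowest after division by the trimmed mean. z1C2 stood at -0.19 ± 0.05 at date 2 (adjusted p = 0.0530) and the delta zein gene dzs18 at 0.32 ± 0.15 at date 3 (adjusted p = 0.264). Zein probe sets can bind transcripts of related copies, so a single copy's level is uncertain.

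lkrsdh1, the first enzyme of lysine breakdown, gave 518, 280, 393 and 240 at date 1, 355, 196, 209 and 204 at date 2 and 364, 174, 249 and 215 at date 3. Each genotype was highest at date 1, although the ranges overlapped because B73 was high at every date. lkrsdh1 fell by 0.53 at date 2 (SE 0.11, adjusted p = 0.0312) and by 0.48 at date 3 (SE 0.11, adjusted p = 0.0422). These calls were lost without 7 and 9 of the 12 arrays (adjusted p up to 0.105 and 0.161). OBF1, a bZIP factor that binds ocs elements, fell at date 2 by 0.46 (SE 0.08, adjusted p = 0.0170) and stood at -0.32 ± 0.08 at date 3 (adjusted p = 0.0514). A second OBF1 probe set gave -0.42 (adjusted p = 0.0306) and -0.48 (adjusted p = 0.0161). By their brightest probe sets, 2 of 8 tested endosperm transcription factors fell at date 2, o2 and OBF1, beside 0.996% of all probe sets. None of the 8 was called at date 3 (3 at an unadjusted p under 0.05 by limma). The GRAS-type factor Scl1 gave 1104, 2695, 1446 and 3058 at date 1, 905, 1818, 1051 and 1601 at date 2 and 1112, 2329, 1310 and 2412 at date 3, a fall of 0.56 at date 2 (SE 0.09, adjusted p = 0.0134) beside -0.17 ± 0.09 at date 3 (adjusted p = 0.305). yuc, of the family that makes auxin, fell by 0.41 (SE 0.07, adjusted p = 0.0202) and 0.32 (SE 0.07, adjusted p = 0.0443). The Scl1 call was lost without Mo17xB73 of date 2 (adjusted p = 0.0507), that on yuc at date 2 without either hybrid's array of date 2 (adjusted p up to 0.0711) and that on OBF1 without 3 of the 12 arrays (adjusted p up to 0.0641).

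**Figure D4:**
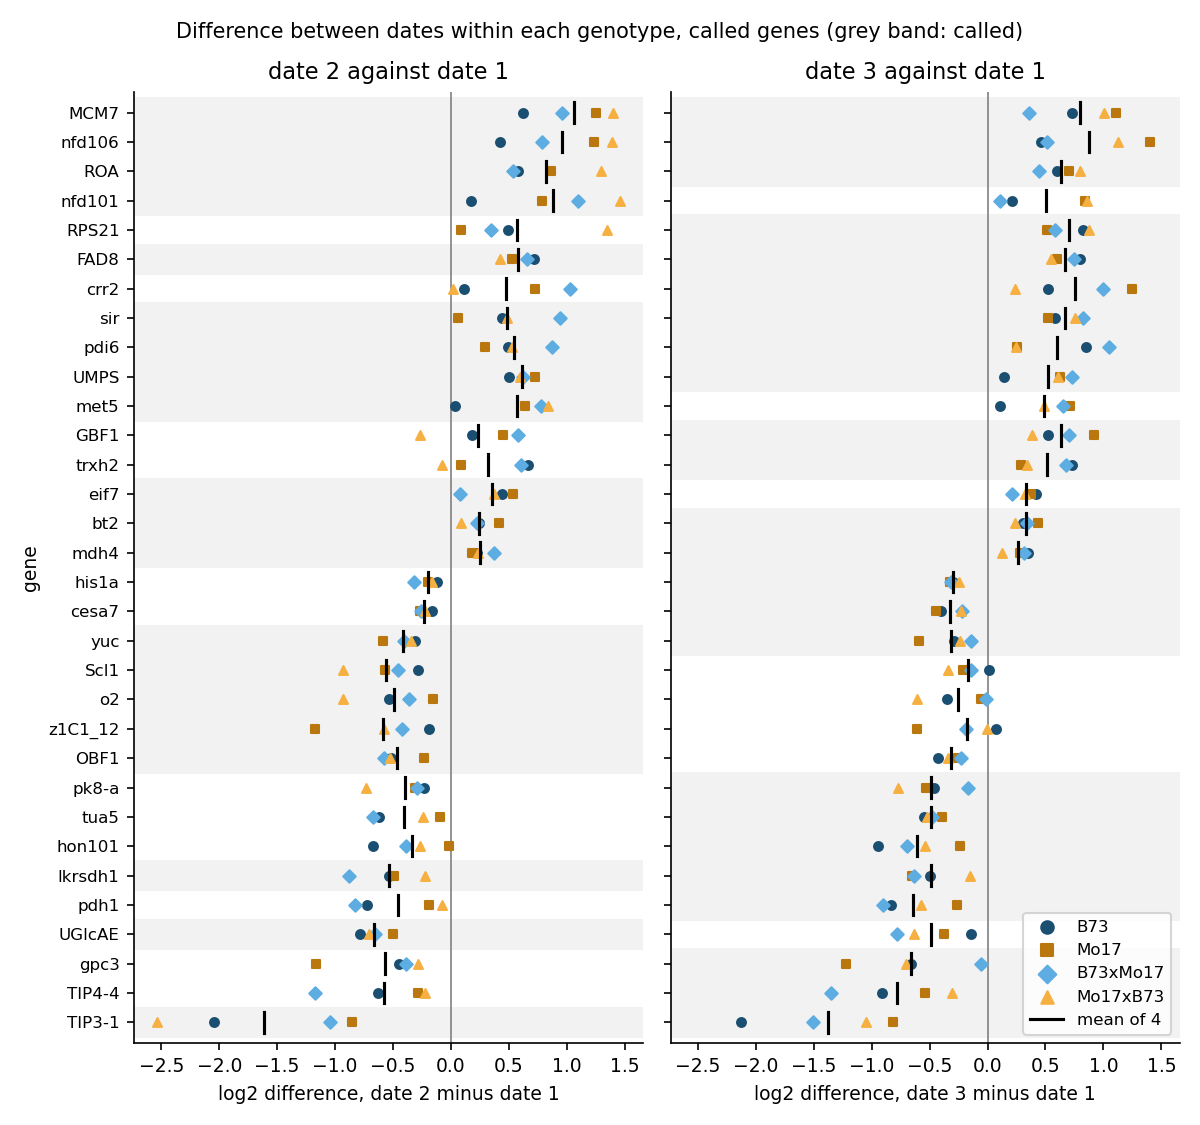
Log2 difference of date 2 (left) and date 3 (right) from date 1 within each genotype (x axis) for the named genes called in either comparison (y axis), with 1 point per genotype, a black bar at the mean of the 4 and a grey band where the adjusted p was under 0.05. MCM7 and nfd106 lie at the top, at means of 1.06 and 0.96 for date 2, and TIP3-1 at the bottom, at -1.62.

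Both linker histone genes called were lower at date 3. hon101 gave 1761, 1813, 1717 and 2354 at date 1, 1100, 1793, 1306 and 1949 at date 2 and 909, 1533, 1054 and 1615 at date 3. The date 3 arrays all lay below those of date 1, and date 2 lay between or overlapped. hon101 fell at date 3 by 0.61 (SE 0.10, adjusted p = 0.0116, and 0.0660 without B73 of date 3) and his1a by 0.29 (SE 0.05, adjusted p = 0.0161, and up to 0.0900 without 1 of 3 date 3 arrays). At date 2 they stood at -0.34 and -0.20 with no call. In all, 2 of the 4 histone genes tested were called, beside 1.29% of all probe sets called lower at date 3.

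Of metabolic and structural genes, tua5, an alpha tubulin, fell at date 3 by 0.49 (SE 0.10, adjusted p = 0.0361). It was the 1 called of 12 tubulin and actin genes, beside 1.29% of all probe sets called lower at date 3. cesa7, a cellulose synthase subunit, fell at date 3 by 0.32 (SE 0.07, adjusted p = 0.0415). UGlcAE, an epimerase for cell wall sugars, fell at date 2 by 0.66 (SE 0.16, adjusted p = 0.0488). Each of these last 2 was the 1 called of 15 cell wall genes at its date. Over all probe sets, 0.996% were called lower at date 2 and 1.29% at date 3. Of the 15 genes, 13 had negative differences at either date. Their median was -0.23 at date 2 and -0.26 at date 3, and -0.23 to -0.09 and -0.30 to -0.10 under the 3 other scalings. The limma calls on tua5, cesa7 and UGlcAE were lost without 7, 10 and 11 of the 12 arrays, with adjusted p up to 0.137, 0.161 and 0.135. At date 3 lower signals were also called for gpc3, a cytosolic glyceraldehyde phosphate dehydrogenase, at -0.66 ± 0.16 (adjusted p = 0.0431), for pdh1, of pyruvate dehydrogenase, at -0.64 ± 0.13 (adjusted p = 0.0281), and for pk8-a at -0.48 ± 0.11 (adjusted p = 0.0444). In each of these 3 genes a brighter probe set had the opposite sign, at 0.23, 0.29 and 0.15 with no call, so no direction can be given to the gene. The calls were lost without 7, 6 and 10 of the 12 arrays (adjusted p up to 0.165, 0.114 and 0.163).

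Of 12 calls taken from probe sets without a gene name in the annotation, 5 were kept whichever single array was left out, against 1 of 47 on named genes. The 12 were the largest differences among unnamed probe sets, while the 47 also took in list members, so these shares are not like for like. Zm.12321.1.S1_at was counted at both dates, and ZmAffx.1216.1.S1_at and ZmAffx.1216.1.S1_x_at share a transcript number. The 5 probe sets below were picked from the 12 calls after their values were seen. Zm.10773.1.A1_at, with the highest rise of them, gave 557, 135, 164 and 7.72 at date 1, 965, 231, 467 and 322 at date 2 and 1305, 1056, 740 and 812 at date 3. Every date 3 array lay above every date 1 array, and the Mo17xB73 array of date 1 was below the added constant. Its log2 differences were 1.79 ± 0.52 at date 2 (adjusted p = 0.0873) and 2.92 ± 0.52 at date 3 (adjusted p = 0.0161), the latter lost without Mo17 or Mo17xB73 of date 3 (adjusted p up to 0.0731). Zm.12321.1.S1_at gave 105, 213, 74.3 and 163 at date 1, 241, 498, 252 and 688 at date 2 and 413, 481, 202 and 347 at date 3, a rise of 1.49 ± 0.20 (adjusted p = 0.00857) and 1.35 ± 0.20 (adjusted p = 0.00775). Every genotype was lowest at date 1, and only B73xMo17 at date 3 fell within the date 1 range. Its calls held without any 1 of the 12 arrays, the adjusted p reaching 0.0487 and 0.0350. Zm.18511.1.S1_at gave 106, 3.29, 49.2 and 32.3 at date 1 and 389, 23.2, 308 and 73.8 at date 3, a rise of 1.61 ± 0.21 (adjusted p = 0.00435) that also held without any 1 array. It was dim in Mo17, where a fold cannot be read closely. ZmAffx.1216.1.S1_at went from 1169, 1326, 2654 and 1908 at date 1 to 800, 769, 1185 and 681 at date 2 and 656, 777, 993 and 851 at date 3. It fell by 1.04 at date 3 (SE 0.13, adjusted p = 0.00418), with no overlap and no array on which the call rested. Zm.2484.1.A1_at gave 700, 261, 1128 and 446 at date 1, 145, 154, 193 and 167 at date 2 and 372, 164, 161 and 389 at date 3. It fell by 1.69 at date 2 (SE 0.32, adjusted p = 0.0231), with no overlap, and the call was lost without 4 of the 12 arrays (adjusted p up to 0.0840).

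No call was made at either date in the lists of heat shock proteins (10 genes), dehydration and abscisic acid (11), low oxygen and fermentation (11), oxylipin synthesis (6), auxin, gibberellin and cytokinin (15), defence (6), ethylene and cell death (6), protein phosphorylation and calcium (14) or literature imprinted genes (3). At an unadjusted p under 0.05 these lists held 3, 2, 3, 2, 4, 2, 0, 3 and 0 genes at date 2 and 3, 0, 7, 4, 6, 2, 0, 2 and 1 at date 3, beside 20.1% and 19.8% of all probe sets. The counts for low oxygen (7 of 11) and oxylipin synthesis (4 of 6) at date 3 were the farthest above that share, and none of them passed the adjusted threshold. The genes yuc and crr2, called above, are not on the hormone list. In these counts the brightest probe set stood for each gene. That of gpc3, on the low oxygen list, was not called at date 3 (adjusted p = 0.0616), although the dimmer one given above was. The small heat shock gene hsp18a gave 202, 103, 264 and 231 at date 1, 220, 76.3, 276 and 128 at date 2 and 446, 227, 414 and 172 at date 3. Its log2 difference of 0.60 ± 0.21 at date 3 was not called (adjusted p = 0.135), and Mo17xB73 moved against the other genotypes. hsp18f stood at 0.61 ± 0.25 at date 3 (adjusted p = 0.194), with 1992 in Mo17 at date 3 against 814 at date 1. None of the 3 named circadian and light genes passed the filter on dim signals.

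Markers of other endosperm layers were summed by array. For 7 aleurone genes the sum at date 1 was 4254 in B73, 2908 in Mo17, 3438 in B73xMo17 and 3578 in Mo17xB73. At date 2 it was 2266, 3119, 2141 and 3671, and at date 3 it was 2370, 2848, 2200 and 3912. The sum was therefore lower at both later-numbered dates in B73 and B73xMo17 but not in both Mo17-borne genotypes. On the values as deposited it was 3544, 2046 and 2322 in B73 and 3264, 1998 and 2049 in B73xMo17, against 2420, 3649 and 3509 in Mo17 and 3762, 3720 and 4441 in Mo17xB73. At the same time no aleurone gene was called between dates over all genotypes (2 and 1 at an unadjusted p under 0.05). The list of 9 basal transfer layer genes also holds ESR1, which is named for the embryo-surrounding region and not for the basal layer. The sum of the 9 was 3009 to 9988 at date 1, 2878 to 10737 at date 2 and 2420 to 10983 at date 3. None was called (0 and 1 at an unadjusted p under 0.05). The smallest p of the list at date 3 was that of ESR1, at 0.86 (limma adjusted p = 0.146). Embryo marker sums were 6015 to 7792 at date 1, 4980 to 7409 at date 2 and 7031 to 8727 at date 3, and none of 5 was called (0 and 1). The embryo oil body gene ole1 gave 617, 884, 1170 and 880 at date 1 against 227, 962, 343 and 1243 at date 2, and the globulin gene glb1 135, 344, 302 and 480 against 45.6, 363, 81.3 and 582. Both were lower at date 2 in the B73-borne samples and higher in the Mo17-borne ones. rab17, dim at 17.5 to 44.4, had the same signs, and a4Lea and lip15 did not. lip15, whose standing as an embryo marker is uncertain, held most of each sum. It gave 5665, 4655, 4279 and 6090 at date 1 and 6054, 5719, 4285 and 4990 at date 2. The whole sum fell from 7792 to 7147 in Mo17xB73 and rose from 6152 to 7409 in Mo17. The part of tissue composition in the differences between dates was not tested.

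That contrast between lines was tested directly. A term for the line taken as female, B73 for B73 and B73xMo17 and Mo17 for Mo17 and Mo17xB73, was allowed to alter the date shifts, with 4 residual degrees of freedom. It was called at 22 probe sets (0.187% of those tested, with 1021 or 8.69% at an unadjusted p under 0.05), and 21 of the 22 had the B73-borne shift below the Mo17-borne shift at both later-numbered dates. The count was 0 without the B73 or the B73xMo17 array of date 1, 1 without Mo17 of date 1, 3 without Mo17 of date 3, 6 and 13 and 14 without Mo17xB73 of dates 1, 2 and 3, and 10 without B73 of date 2. It was 0 with no filter on dim probe sets or with no mean-variance trend, and 123 on the values as deposited. A corresponding term for inbreds against hybrids was called at 0 probe sets by limma (493, or 4.20%, at an unadjusted p under 0.05) and at 1 without the B73 array of date 3.

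In the 6 named genes with the smallest p for this term, B73-borne endosperm was highest at date 1. sus1, a sucrose synthase that cleaves imported sucrose, gave 746, 229 and 306 at dates 1, 2 and 3 in B73 and 776, 258 and 227 in B73xMo17. In Mo17 it gave 1579, 1702 and 1595, and in Mo17xB73 1565, 1775 and 1711. B73-borne signals were thus highest at date 1 but still below every Mo17-borne signal. The mean shift from date 1 was -1.55 in B73-borne and 0.11 in Mo17-borne samples (adjusted p of the difference = 0.0164). A second sucrose synthase gene, sus2, gave 1110, 541 and 497 in B73, 980, 503 and 482 in B73xMo17, 228, 373 and 335 in Mo17 and 507, 544 and 659 in Mo17xB73. Its B73-borne signals were above the Mo17-borne ones at date 1 and within their range at the other dates, with shifts of -1.03 and 0.42 (adjusted p = 0.0176).

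Of 7 tested aleurone markers, 1 was called for this term by its brightest probe set and 4 had an unadjusted p under 0.05. The shares over all probe sets were 0.187% and 8.69%. Such unadjusted counts were not particular to aleurone genes. They were 9 of 25 for oxidative stress, which also lists per-1, 6 of 13 for chaperones and 6 of 19 for starch and sucrose. Central carbon metabolism had 0 of 13. per-1, a peroxidase gene used here as an aleurone marker, gave 301, 72.5 and 112 in B73, 375, 105 and 80.9 in B73xMo17, 554, 604 and 599 in Mo17 and 579, 689 and 727 in Mo17xB73. The shift was -1.77 in B73-borne and 0.20 in Mo17-borne samples (adjusted p = 0.0176). PLTP, a lipid transfer protein gene, gave 1882, 250 and 394 in B73, 761, 140 and 131 in B73xMo17, 54.8, 58.0 and 50.4 in Mo17 and 656, 435 and 705 in Mo17xB73. Its shifts were -2.47 and -0.13 (adjusted p = 0.0171), and the brighter PLTP probe set gave a difference of the same sign that was not called (adjusted p = 0.0764). The other 5 markers were not called, with adjusted p from 0.208 for vpp1 to 0.869. Their differences at dates 2 and 3 were -0.67 and -0.61 for vpp1, -0.21 and -0.39 for cr4, and -0.27 and -0.07 for dek1. Against these, pl1, dim at a mean signal of 49.3, had the opposite sign at 2.28 and 1.85, as did a2 at 0.30 and 0.43. prp2, a gene of the defence list, gave 289, 68.4 and 91.0 in B73 and 212, 39.0 and 52.3 in B73xMo17, with shifts of -1.87 and 0.06 (adjusted p = 0.0164). The histone H1 gene his1 gave 896, 604 and 520 in B73, 795, 576 and 439 in B73xMo17, 793, 1238 and 1142 in Mo17 and 731, 1049 and 768 in Mo17xB73. The lines lay together at date 1 and apart at the other dates, with shifts of -0.66 and 0.44 (adjusted p = 0.0380), and its other 2 probe sets were not called. The calls on sus1, sus2, PLTP, per-1, prp2 and his1 were lost without 4, 4, 4, 5, 3 and 9 of the 12 arrays, and each of the 6 was lost without B73, Mo17 or B73xMo17 of date 1, the adjusted p reaching 0.127, 0.131, 0.127, 0.135, 0.127 and 0.213.

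**Figure D5:**
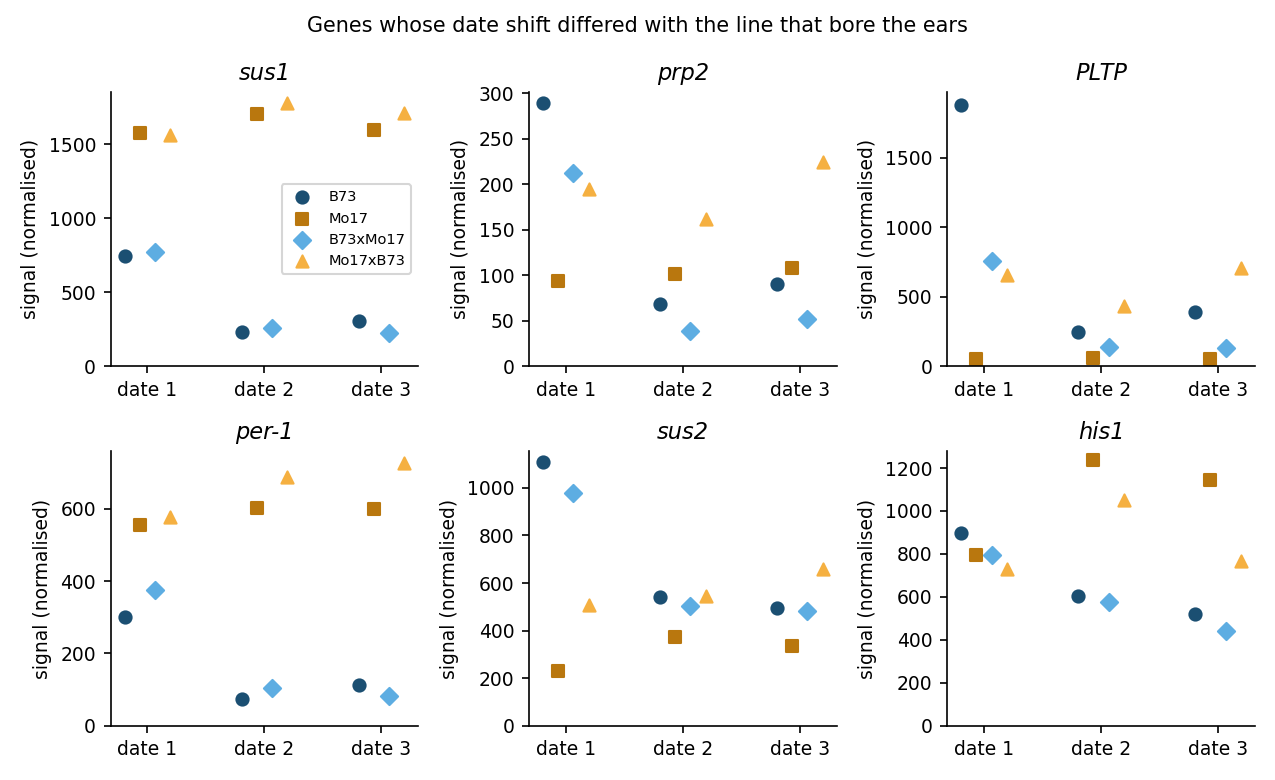
Quantile-normalised signal (y axis, linear, from 0) on each array by crossing date (x axis) for the 6 named genes with the smallest p for a date shift that differed with the female line, 1 point per array, colour and shape giving the genotype. In sus1 the B73 and B73xMo17 points fall from 746 and 776 at date 1 to between 227 and 306 at dates 2 and 3, while the Mo17 and Mo17xB73 points stay between 1565 and 1775.

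Whether the date differences extended to a genotype left out of the fit was also described. With B73 left out, 105 probe sets were called between dates 2 and 1, and 80.0% of them moved the same way between the B73 arrays, beside 63.9% of all probe sets tested taken in the direction of that fit. With Mo17 left out the share was 77.5% of 80, beside 58.6%, and with B73xMo17 left out it was 95.7% of 23, beside 58.3%. Without Mo17xB73 limma called 0 probe sets between dates 2 and 1, with 1777 at an unadjusted p under 0.05 against 1812 to 2186 when another genotype was left out. Between dates 3 and 1 the shares were 90.3% of 31 for B73, 94.6% of 37 for Mo17, 86.2% of 58 for B73xMo17 and 86.2% of 109 for Mo17xB73, beside 66.4%, 62.9%, 59.5% and 64.2%. In the arrays left out, the median difference in the called direction was 0.21 to 0.50 for date 2 and 0.36 to 0.58 for date 3. Probe sets are not independent of one another, and the arrays were normalised and filtered together here, so these shares carry no test.

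Date also bore on the comparison of genotypes. With date in the model, 6299 probe sets (53.6%) differed over the 4 genotypes, against 5551 without it, and 5528 were called in both.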

How the data were processed

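Transcript levels were measured in 12 endosperm samples, 1 array each. The values are deposited intensity values, linear and with 1 signal per probe set and array. The authors used MAS5, as the submitters' processing notes record, and its version and scaling target were not given in the sources used here. Of 17734 probe sets, 113 Affymetrix controls and then the dimmest 33.3% of the other 17621 by mean signal were left out. Signals were quantile-normalised and put on the scale log2(signal + 10.6), where the constant is the 20th percentile of all values. limma 3.58.1 in R 4.3.3 (lmFit, eBayes with a mean-variance trend) was fitted with genotype and date to the 11748 probe sets left, leaving 6 residual degrees of freedom (12.7 after variance shrinkage) and 4 for interactions. All tests were two-sided, with Benjamini-Hochberg adjustment over all probe sets tested. Of the steps, only the fits of the date differences and of the female-line term were tried on simulated data.

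The labels state that a replicate number marks a shared crossing date, so the numbers pair the samples. After genotype means were subtracted, arrays of 1 date correlated at 0.0397 to 0.391 (18 pairs) and arrays of different dates and genotypes at -0.290 to 0.142 (36 pairs). The other 12 pairs, of 1 genotype at different dates, lay at -0.734 to -0.0516, as their deviations sum to 0 within a genotype. Replicates were separate pools, and p-values measure the spread left between these pools after genotype and date were fitted. No pair of arrays shared more than 0.00564% identical values.

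Gene names follow the platform annotation, brought up to date with NCBI's gene table: 1452 probe sets had 1 gene, 1 several and 16281 none, and 863 tested probe sets were named. Probe sets ending in s_at or x_at can bind related transcripts. The dates compared and the 29 gene lists were chosen with earlier results of these data known, and 20 genes matched by a coincidence of symbols alone were dropped. Named genes were the 8 highest and 8 lowest called differences per contrast with 1 sign in all 4 genotypes, the 2 smallest p among those called per list (for heat shock, zein, starch, marker and circadian lists whether called or not), up to 3 unnamed probe sets per direction (5 of them are printed), and the 6 smallest p per interaction. The brightest probe set stood for a gene in list counts and sums. Alternatives covered scaling, constant, filter, variance trend, array weights, the block and each array or genotype left out. Each date against the mean of the others, and arrays left out for the interactions, were added after seeing the data.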

Additional observations from a re-analysis of the deposited data

Results flagged for a closer look

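For 6 named genes a test of the difference itself found that the shift from date 1 was not the same in samples borne on the B73 line and on the Mo17 line. The values are the B73-borne shift minus the Mo17-borne shift, averaged over dates 2 and 3, on the log2 scale, with limma's adjusted p for both terms together. The difference was -1.65 for sus1 (adjusted p = 0.0164), -1.93 for prp2 (0.0164), -2.34 for PLTP (0.0171), -1.97 for per-1 (0.0176), -1.45 for sus2 (0.0176) and -1.09 for his1 (0.0380). Each rests on 2 genotypes per line and on 4 arrays of date 1.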

How the results depend on the processing

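The counts of calls between dates depended on the processing. None of the 47 selected calls on named genes changed sign in any alternative run. Calls outside that selection, on UMPS and yuc at date 3, sir at date 2 and the second OBF1 probe set, were not re-run. The values below are for the F test, date 2 minus date 1 and date 3 minus date 1. As deposited they were 266, 134 and 492, with median centring 904, 939 and 1128, with no filter 76, 99 and 120, with no mean-variance trend 23, 40 and 98, and with array weights 225, 128 and 611. With genotype left out of the model they were 0, 0 and 1. With all arrays of a genotype left out they were 67, 105 and 31 for B73, 32, 80 and 37 for Mo17, 24, 34 and 63 for B73xMo17, and 49, 0 and 111 for Mo17xB73, each with fewer samples and normalised without that genotype. With 1 array left out they ran from 58 to 167, from 9 to 248 and from 30 to 412. Each date against the mean of the others, added after seeing the data, gave 669 for date 1, 0 for date 2 and 5 for date 3. The female-line term gave 123 as deposited, 0 with no filter and 0 with no trend, and 0 to 31 with 1 array left out. The inbred or hybrid term gave 0 to 1 and the genotype test 5355 to 6420 with 1 array left out, and date 3 minus date 2 stayed at 0 in all 27 alternatives. Dropping the replicate block (date) from the genotype test gave 5551 calls in place of 6299. Of 59 selected calls, 47 were on named genes and 12 on unnamed probe sets. Whichever single array was left out, 1 and 5 of these were kept, and none of the 59 held under every alternative. For the date calls that last outcome was nearly fixed, because the fit without genotype called 0 probe sets for date 2 and 1 for date 3. The 2607 re-estimated values cover the 59 called and 39 uncalled differences together. Among those of called differences 609 lost the call, and among those of uncalled differences 19 gained one. The 2 kinds were not counted apart, so neither number is a share of 2607. Of 39 differences that were not called, 3 changed sign somewhere: z1C2 at date 3 (-0.13, up to 0.03), and me3 at date 2 (0.07, down to -0.03) and between dates 3 and 2 (0.04, down to -0.03). The cause of these differences between settings was not tested, beyond the smaller samples. Dim probe sets, the 4 arrays of a date and the lack of detection calls limit what could be seen.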
